A study of Mus musculus with 24 samples.

Results

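A set of 8 Dusp genes that encode phosphatases of MAP kinases were followed in bulk RNA of the mouse anterior cingulate cortex, a frontal area. They were taken by symbol from a table of 15232 genes, as 8 of the 22 Dusp genes in it: Dusp1, Dusp3, Dusp4, Dusp5, Dusp6, Dusp7, Dusp8 and Dusp14. All 8 had a mean level of 1 or more in FPKM, fragments counted per kilobase of gene length and corrected for sequencing depth, and were among the 12572 genes tested.

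The study asked what thrombospondins 1 and 2, matrix proteins secreted by astrocytes, contribute to effort in a goal-directed task. Each of the 24 libraries came from 1 animal, in 3 arms of 8 with 4 females and 4 males in each: untrained WT, untrained Thbs1/2 KO and trained Thbs1/2 KO. Trained animals worked in an operant box while short of food, and RNA was taken no more than 1 hour after the task, so training, food deprivation and time since the task cannot be told apart. Trained WT animals were not analysed here. Strain, age and the construction of the KO are not given in the sources used here.

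MAP kinases relay signals from growth factor receptors, synaptic calcium and cellular stress through a chain of kinases. The last kinases of the chains, ERK, JNK and p38, are switched off when a dual-specificity phosphatase removes phosphate from both the threonine and the tyrosine of their activation loop. Several of these phosphatase genes are themselves transcribed when ERK or CREB is active, so they serve as negative feedback, and in cortical neurons their transcripts rise soon after strong activity. Dusp1, Dusp4 and Dusp5 encode inducible nuclear enzymes, Dusp6 and Dusp7 cytoplasmic enzymes that prefer ERK, Dusp8 an enzyme that prefers JNK and p38, and Dusp3 and Dusp14 small atypical enzymes without the MAP kinase binding domain.

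The DNA just upstream of a start site is shown for 4 of the genes because it carries, or lacks, letters that transcription factors of the activity response are known to bind. The stretches run from base -200 to base -51 before the start site used (GRCm38.p6), in the direction of transcription. For Dusp1, Dusp5 and Dusp6 that site is the start of the RefSeq gene. For Dusp8 it lies inside the RefSeq gene, chr7:142079487-142095907, and so does the stretch printed. Capitals mark the cAMP response element TGACGTCA, its core TGACG on either strand and the CArG box, the site of serum response factor.
Dusp1, chr17:26508523-26508672, minus strand: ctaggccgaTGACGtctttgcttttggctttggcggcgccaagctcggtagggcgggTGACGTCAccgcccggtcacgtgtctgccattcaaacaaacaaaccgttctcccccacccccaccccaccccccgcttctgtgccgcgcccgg
Dusp5, chr19:53528945-53529094, plus strand: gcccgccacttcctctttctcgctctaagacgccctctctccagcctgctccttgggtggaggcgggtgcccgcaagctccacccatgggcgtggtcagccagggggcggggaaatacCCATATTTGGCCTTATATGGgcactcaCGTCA
Dusp6, chr10:99263031-99263180, plus strand: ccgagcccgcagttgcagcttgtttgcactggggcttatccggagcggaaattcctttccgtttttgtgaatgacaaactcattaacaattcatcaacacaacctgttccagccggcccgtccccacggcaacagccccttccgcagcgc
Dusp8, chr7:142095335-142095484, minus strand: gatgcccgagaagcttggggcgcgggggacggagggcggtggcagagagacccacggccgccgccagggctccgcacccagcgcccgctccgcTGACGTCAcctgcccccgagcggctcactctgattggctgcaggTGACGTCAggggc

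Promoter sequence was at hand for 7 of the 8 genes, all but Dusp4, and the 250 bases before the start site used were searched on both strands. The windows of Dusp3, Dusp8 and Dusp14 lie inside the RefSeq gene, and that of Dusp7 partly so. The full cAMP response element TGACGTCA occurred once before Dusp1, at bases -143 to -136, and at 2 places before Dusp8, at -107 to -100 and -63 to -56. It occurred in the same window of 1.62% of 27025 promoters. The core TGACG, which is part of the full element, was found in 3 of the 7, before Dusp1, Dusp5 and Dusp8, against 17.9% of all promoters. The CArG box was found only before Dusp5 among the 7, as 2 adjoining copies at bases -82 to -73 and -72 to -63, against 1.40% of all promoters. No match to the AP-1 letters TGANTCA (6.87% of all promoters) or the EGR letters GCGNGGGCG (4.65%) lay in these 7 windows. These are letter matches only, and the window printed for Dusp6 holds none of the motifs searched.

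The genes lie on different chromosomes except for a pair. In RefSeq GRCm38.p6, Dusp1 is at chr17:26505591-26508472, Dusp4 at chr8:34807610-34819894, Dusp5 at chr19:53529145-53541809 and Dusp6 at chr10:99263231-99267489. Dusp7 is at chr9:106368560-106375724 and Dusp8 at chr7:142079487-142095907. Dusp3 (chr11:101971141-101987013) and Dusp14 (chr11:84048033-84069256) share chromosome 11, and Dusp1 shares chromosome 17 with Thbs2. In the GENCODE M21 annotation an exon of a gene on the opposite strand overlaps exons of Dusp1 (Ergic1), Dusp3 (Gm20659), Dusp5 (AC137853.2) and Dusp8 (Gm32786). Whether the authors' counting used strand is not given in the sources used here, so reads of these partners could be in the values of those 4 genes.

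Transcript levels of the knocked-out genes ran against the genotype labels. Thbs1 was at 0.254 to 0.716 FPKM in the 8 libraries labelled WT, 2.77 to 5.04 in untrained KO libraries and 3.62 to 5.91 in trained ones. Thbs2 was at 1.52 to 2.31, 2.82 to 3.95 and 2.95 to 3.63 FPKM in the same order. All 16 libraries labelled KO were above all 8 labelled WT for both genes. Every direction below between WT and KO thus rests on labels at odds with these transcript levels. Whether the labels are exchanged or the KO alleles leave transcript was not tested. Depth, recovered as whole reads per library, was 12343773 to 20414047 reads in 23 libraries and 27233266 in the untrained male 3 labelled KO. In that male the summed level of 10 cortical neuron markers was 843 FPKM, where the other 7 of its arm had 1337 to 1586. Its 10 striatal markers summed to 799.5 FPKM, against 99.0 to 415, and its 8 septal markers to 154.5 FPKM, against 9.38 to 13.0. No cortical marker was at 0 in any library. All 8 trained animals carried numbers over 1000 in the labels, against 2 untrained males labelled KO and 1 untrained male labelled WT, so that among females training and animal number cannot be told apart.

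The order of the 8 transcripts by mean level per length (FPKM) over the 24 libraries was Dusp3 (62.9 ± 8.18, SD, n = 24), Dusp14 (50.7 ± 8.72), Dusp8 (34.4 ± 2.71), Dusp1 (31.1 ± 10.02), Dusp6 (29.8 ± 6.72), Dusp7 (25.4 ± 3.22), Dusp5 (7.43 ± 1.83) and Dusp4 (4.93 ± 1.29). Dusp3 was above Dusp14, and Dusp7 above Dusp5, in all 24 libraries. Dusp14 was above Dusp8 in 23 libraries and Dusp5 above Dusp4 in 22. Dusp8, Dusp1 and Dusp6 were not separated: Dusp8 was above Dusp1, and Dusp1 above Dusp6, in 15 of 24 libraries each, and Dusp6 was above Dusp7 in 18. The lowest values rested on 78 reads for Dusp5 and 111 for Dusp4, and every other gene had at least 519 reads in each library.

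**Figure D1:**
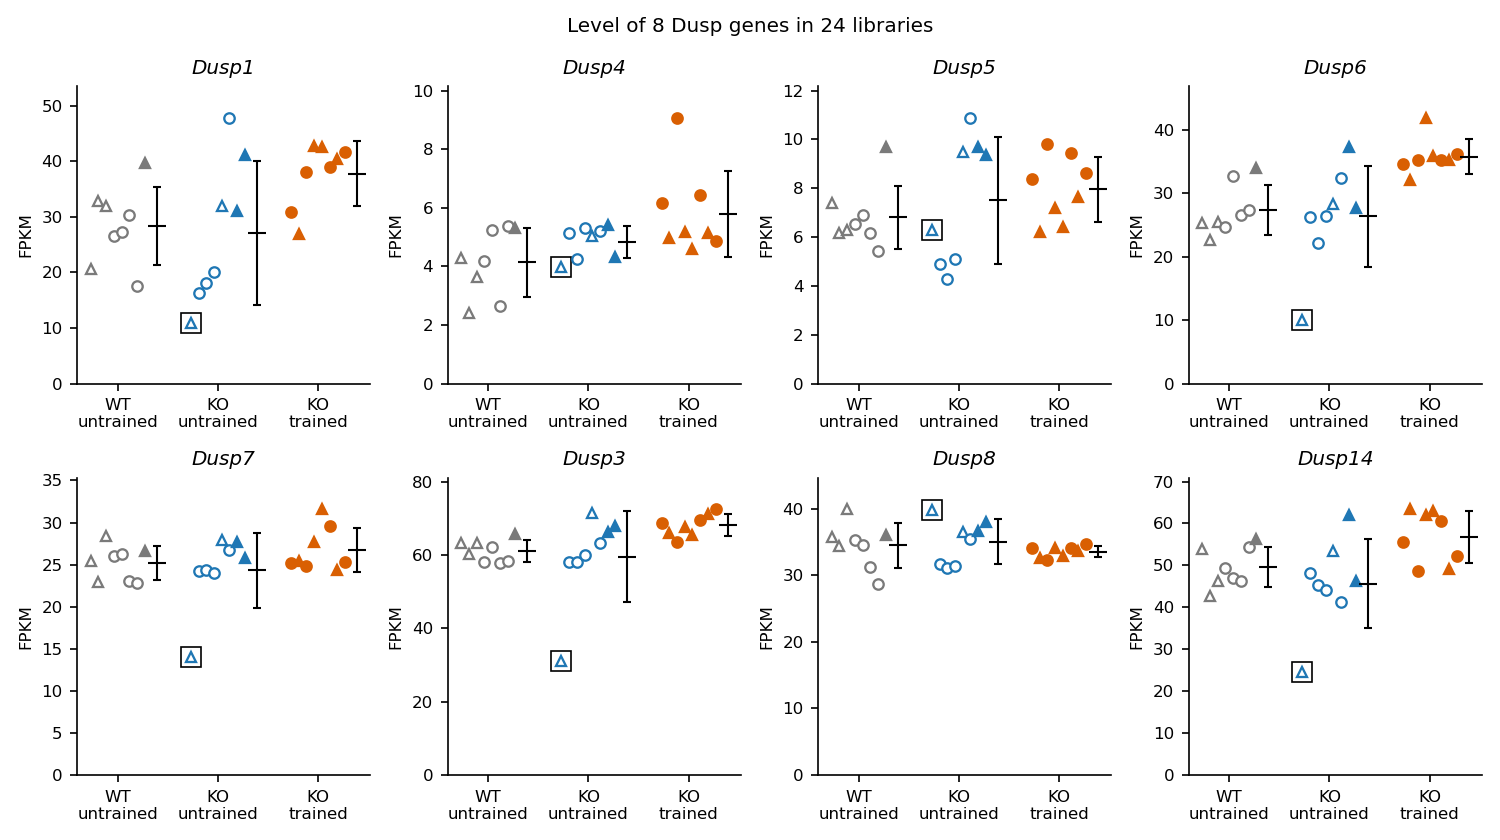
FPKM of each Dusp gene (vertical axis, from 0) in the 8 libraries of each arm. Circles are females, triangles males, filled symbols animals numbered over 1000, the square frames the untrained male 3 labelled KO, and the bars give mean ± SD. The framed library is lowest of its arm for 6 genes and highest for Dusp8.

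Dusp1, the inducible nuclear phosphatase of JNK, p38 and ERK, had the widest spread of the 8 relative to its level. In the untrained libraries labelled WT it was at 17.5 FPKM at the lowest, 28.8 at the median and 39.7 at the highest. In the untrained libraries labelled KO the same values were 10.9, 25.5 and 47.8, and in the trained ones 26.9, 39.7 and 42.8. The untrained KO arm was itself split. Its females 1, 2 and 3 were at 16.2, 18.1 and 20.04 FPKM and male 3 at 10.9, while female 4 stood at 47.8, above every trained library, and males 1, 2 and 4 at 31.0, 41.1 and 32.0. The 3 untrained animals numbered over 1000 were at 31.0, 39.7 and 41.1 FPKM, inside the range of the trained arm. Some untrained animals numbered under 1000 were inside it too. They were WT females 2 (27.3) and 3 (30.4), WT males 3 (32.8) and 4 (31.9) and KO male 4 (32.0).

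Dusp1 was higher in trained than in untrained libraries labelled KO by 0.59 on the log2(FPKM + 1) scale, which did not pass (limma, SE 0.24, adjusted p = 0.140). Against the libraries labelled WT the trained ones were higher by 0.43 (limma, SE 0.13, adjusted p = 0.0252), a factor of 1.34 in FPKM + 1. Without trained female 4 the adjusted limma p was 0.0517. All fold values below are likewise ratios of FPKM + 1. In females alone the trained libraries were all above those labelled WT, and in males the 2 arms overlapped. How many tested genes were separated in this way within a single sex was not counted. The untrained arms differed by -0.16 (SE 0.25, adjusted p = 0.846), or 0.02 without male 3.

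Dusp4, the nuclear phosphatase with the lowest level here, lacked the low females of Dusp1. It was at 2.40, 4.24 and 5.37 FPKM (lowest, median, highest) in the libraries labelled WT, 3.98, 5.08 and 5.42 in the untrained ones labelled KO, and 4.59, 5.16 and 9.07 in the trained ones. The highest value belonged to trained female 2, and the other 7 trained libraries lay between 4.59 and 6.43. The low end of the WT arm was set by female 3 (2.66) and male 3 (2.40). The trained libraries were higher than those labelled WT by 0.42 (limma, SE 0.13, adjusted p = 0.0282), 1.33-fold in FPKM + 1. Mean levels were 5.80 ± 1.47 FPKM in the trained libraries and 4.14 ± 1.17 in those labelled WT (SD, n = 8 each). Without trained female 2, WT female 3 or WT male 3 the adjusted limma p was 0.0579, 0.0589 or 0.0608. For training the value was 0.20 (adjusted p = 0.194) and for genotype label 0.21 (adjusted p = 0.519), neither of which passed.

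Dusp5, the nuclear phosphatase specific to ERK whose promoter stretch holds the adjoining CArG boxes, passed in none of the 3 comparisons with all libraries. Its lowest, median and highest levels were 5.45, 6.40 and 9.67 FPKM in the libraries labelled WT, 4.30, 7.83 and 10.9 in the untrained ones labelled KO, and 6.20, 8.004 and 9.79 in the trained ones. As with Dusp1, females 1 to 3 of the untrained KO arm were low, at 4.91, 4.30 and 5.10 FPKM, and female 4 was the highest of all 24. The differences were 0.13 for training (limma, adjusted p = 0.685) and 0.20 for trained KO against WT (adjusted p = 0.148). Without WT male 1, at 9.67 FPKM the highest of its arm, the latter was 0.28 and passed (limma, adjusted p = 0.0170).

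Over all libraries Dusp5 did not pass for sex (0.10 higher in males, limma, adjusted p = 0.557), while in the trained arm the sexes were apart. Trained females were at 8.37 to 9.79 FPKM and trained males at 6.20 to 7.64, with no overlap. The share of tested genes with separations of this kind was not counted. In the untrained KO arm the males were at 9.37, 9.48 and 9.68 and male 3 at 6.29, so the trained males sat below 3 of the 4. The training difference was 0.54 in females and -0.29 in males. The difference between these, -0.83 (SE 0.27), did not pass over all genes (limma, interaction term, adjusted p = 0.172). None of the 8 passed that test by limma or limma-voom, 2 had an unadjusted p under 0.05 (15.5% of tested genes did), and 0.00795% of tested genes passed it. Among animals numbered over 1000, the 3 untrained males stood at 9.37 to 9.68 FPKM, above all 4 trained males.

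Dusp6, the cytoplasmic ERK phosphatase whose transcript follows ERK output, separated the trained arm from WT most clearly of the 8. Its lowest, median and highest levels were 22.7, 26.0 and 33.9 FPKM in the libraries labelled WT, 10.1, 27.04 and 37.3 in the untrained ones labelled KO, and 32.0, 35.2 and 41.9 in the trained ones. Of the 8 trained libraries 7 were above every library labelled WT, and the exception, trained male 1 at 32.0, lay below WT female 2 and WT male 1. Trained females were all above the WT females, while males overlapped, and the share of tested genes so separated was not counted.

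The trained libraries were higher than those labelled WT by 0.38 for Dusp6 (limma, SE 0.073, adjusted p = 0.00138), 1.31-fold. Against the untrained KO arm the difference was 0.50 (SE 0.18, limma adjusted p = 0.103), with 8 of 8 trained libraries above that arm's mean. Without untrained male 3, at 10.1 FPKM far below the next value of 22.1, the difference was 0.32 and passed (limma, adjusted p = 0.0253). That was the only 1 of the 8 genes to pass for training without that library, when 6.78% of tested genes did. Of the untrained animals numbered over 1000, KO male 1 was at 37.3, WT male 1 at 33.9 and KO male 2 at 27.7 FPKM.

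Dusp7, the close relative of Dusp6 that also prefers ERK, did not differ between arms as Dusp6 did. It stayed between 22.9 and 28.4 FPKM in the libraries labelled WT, between 23.99 and 27.9 in 7 of the untrained KO libraries and between 24.4 and 31.6 in the trained ones, and male 3 was at 14.0. Medians were 25.7, 25.1 and 25.4 FPKM in the same order. Trained libraries differed from those labelled WT by 0.082 (limma, adjusted p = 0.310) and from the untrained KO arm by 0.15 (adjusted p = 0.422), or 0.041 without male 3. Across the 24 libraries Dusp6 and Dusp7 had a Pearson r of 0.82 in log2(FPKM + 1), and 0.49 without male 3. With the mean of each arm and sex subtracted, r was 0.84, and 0.37 without male 3.

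Dusp8, the phosphatase of JNK and p38 with 2 cAMP response elements in its promoter stretch, had the least spread between libraries relative to its level. Its lowest, median and highest levels were 28.7, 34.9 and 39.9 FPKM in the libraries labelled WT, 31.0, 36.0 and 39.8 in the untrained ones labelled KO, and 32.3, 33.8 and 34.7 in the trained ones. It was the only 1 of the 8 with a mean lower in the trained arm than in both untrained arms, by 0.057 against KO (limma, adjusted p = 0.470) and by 0.033 against WT (adjusted p = 0.646), and neither passed. Male 3 of the untrained KO arm, lowest of its arm for 6 of the others, was its highest for Dusp8.

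Dusp8 was also the only 1 of the 8 to differ by sex. Over the 24 libraries males were at 35.9 ± 2.47 FPKM (SD, n = 12) and females at 32.9 ± 2.10 (SD, n = 12), a difference of 0.12 (limma, adjusted p = 0.0247), where 14.8% of tested genes were higher in males. With all libraries scaled to an equal sum the difference was 0.073 (adjusted p = 0.173), and with correction for GC content and length 0.0018 (adjusted p = 0.986), so the call did not hold under those settings. Within the trained arm the sexes were alike in range, 32.3 to 34.7 in females and 32.7 to 34.1 in males. Trained males were below all 4 untrained males labelled KO (36.5 to 39.8) and all 4 labelled WT (34.4 to 39.9). The share of tested genes with such a separation was not counted. The training difference in males minus that in females was -0.23 (limma, interaction term, SE 0.071, adjusted p = 0.142), which did not pass. Without untrained male 3 labelled KO, Dusp3 was also higher in males, by 0.083 (limma, adjusted p = 0.0486).

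**Figure D2:**
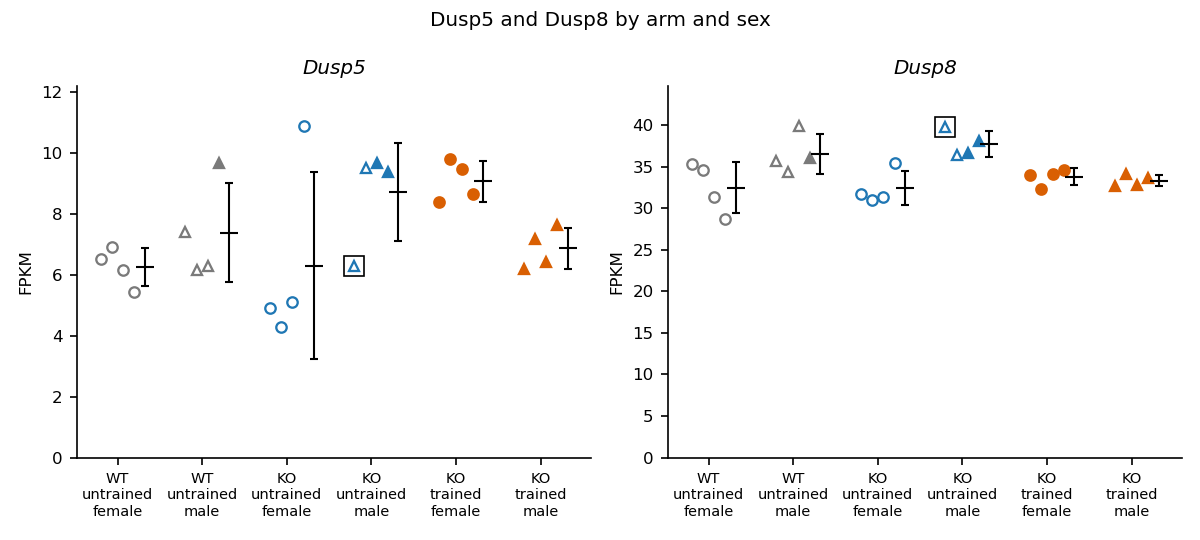
FPKM of Dusp5 and Dusp8 (vertical axis, from 0) in the 4 libraries of each sex and arm, with symbols as in the plot of all 8 genes and bars for mean ± SD. For both genes the trained males sit lower than most untrained males labelled KO, while trained females are not below most untrained females labelled KO.

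Dusp3, a small atypical phosphatase, was the most abundant of the 8. Its lowest, median and highest levels were 57.9, 61.3 and 65.7 FPKM in the libraries labelled WT, 31.1, 61.8 and 71.4 in the untrained ones labelled KO, and 63.6, 68.2 and 72.5 in the trained ones. The value of 31.1 was male 3, and the other 7 of its arm were at 58.1 or more. The trained libraries were higher than those labelled WT by 0.15 (limma, SE 0.037, adjusted p = 0.00693), 1.11-fold, and 6 of the 8 were above every library labelled WT. Against the untrained KO arm the difference was 0.22 (adjusted p = 0.281), or 0.093 without male 3 (adjusted p = 0.208).

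Dusp14, the other atypical phosphatase, had lowest, median and highest levels of 42.8, 48.2 and 56.2 FPKM in the libraries labelled WT, 24.7, 45.8 and 62.1 in the untrained ones labelled KO, and 48.7, 58.1 and 63.4 in the trained ones. Trained females 1, 2 and 4 and male 4, at 55.6, 48.7, 52.3 and 49.2, were inside the WT range. The difference from WT was 0.19 (limma, SE 0.067, adjusted p = 0.0427), 1.14-fold, and had the highest adjusted p of the 5 calls. It was lost without any 1 of 10 of the 16 libraries, with adjusted limma p-values of up to 0.0907: trained females 1 and 3, trained males 1, 2 and 3, and, of those labelled WT, females 1, 2 and 3 and males 3 and 4. It was at 0.0778 with libraries scaled to an equal sum and at 0.0976 with correction for GC content and length. The training difference was 0.34 (adjusted p = 0.129), or 0.21 without male 3 (adjusted p = 0.0749).

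Counted over the 8, none passed for genotype label by limma or by limma-voom on recovered reads, 0 had an unadjusted p under 0.05 (12.7% of tested genes did), and 1.42% of tested genes were called in either direction. None passed for training by either tool, where 5.67% were called, and 4 of the 8 had an unadjusted limma p under 0.05, as did 23.8% of tested genes. With weights for single libraries Dusp1, Dusp6 and Dusp14 passed for training (limma, adjusted p = 0.0407, 0.0166 and 0.0386). In that fit 2020 of 12572 tested genes were called for training. In trained KO against untrained WT, Dusp1, Dusp3, Dusp4, Dusp6 and Dusp14 passed and all 5 were higher in the trained arm, where 12.9% of tested genes were called higher and 11.5% lower. Some sums of cell type markers also differed in range between the same 2 arms. The 6 meningeal fibroblast markers summed to 13.6 to 28.2 FPKM in the libraries labelled WT and 20.6 to 32.2 in the trained ones, and the 6 interneuron markers to 441 to 627 and 523 to 681. The 8 microglia markers summed to 149.7 to 177 and 138 to 155. For the 10 cortical neuron markers the sums were 1248 to 1675 and 1365 to 1592, the second range inside the first, with means of 1466 and 1452. No marker of these lists was at 0, the sums of all 9 lists overlapped between the arms, and their part in the calls was not tested. The median difference of the 8 was 0.20 in that comparison and 0.21 for training, against 0.0032 and 0.0065 over all tested genes. Those 2 comparisons share the trained arm. Giving every library the same sum of FPKM moved the split of calls over all genes, from 440 higher and 273 lower to 235 and 385 for training, and from 1626 and 1448 to 1095 and 2112 against WT. No Dusp gene had all 8 trained libraries above all 8 labelled WT, which 1.65% of tested genes did. In bulk tissue, fewer cells of a type and less RNA per cell cannot be told apart, and the p-values measure the spread between these animals.

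**Figure D3:**
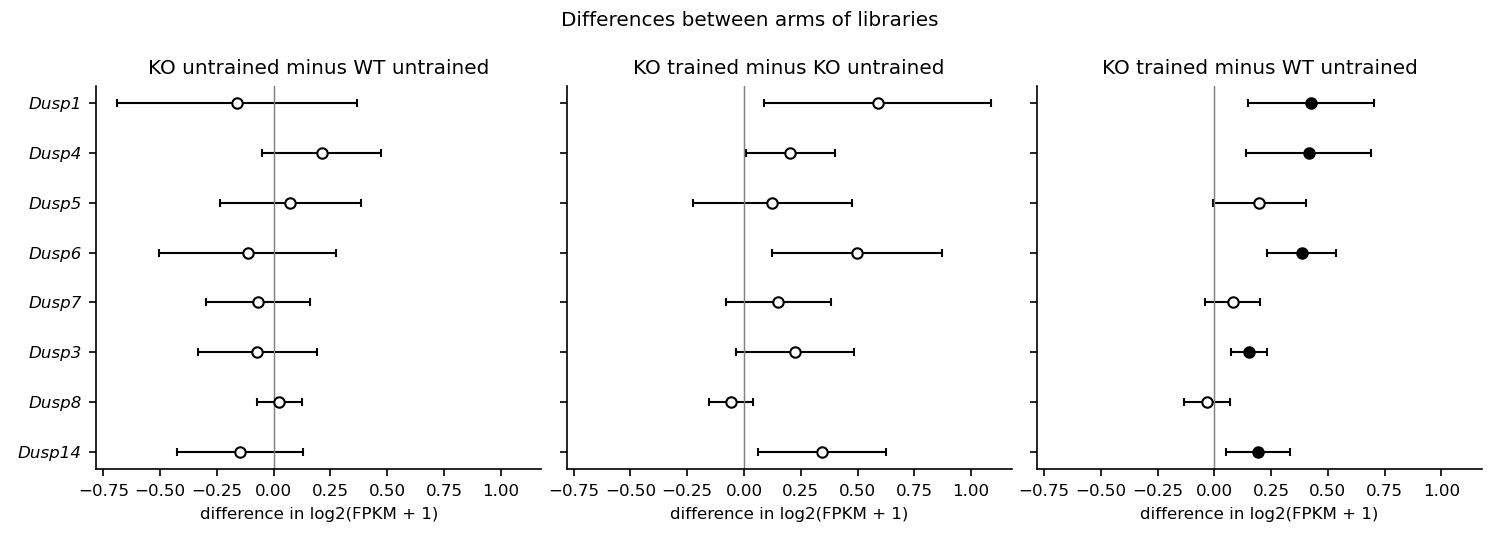
Difference in log2(FPKM + 1) with 95% confidence interval (horizontal axis) for the 8 genes in the 3 comparisons of arms, filled where the adjusted p was under 0.05. The 5 filled points are all in the comparison of trained KO with untrained WT, to the right of 0.

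The differences behind the 5 calls were smaller in size with animal number as a covariate. All 8 trained libraries and 1 of the 8 labelled WT were numbered over 1000, so number and training nearly coincide. With number over 1000 as a covariate the differences between trained KO and untrained WT were -0.044 for Dusp1, -0.068 for Dusp4, 0.039 for Dusp6, 0.062 for Dusp3 and 0.031 for Dusp14. Dusp5 was at -0.35 in the same fit. That fit separates number from training only through 1 male labelled WT, at 39.7 FPKM for Dusp1, 33.9 for Dusp6, 65.7 for Dusp3 and 56.2 for Dusp14, each the highest of its arm. In the comparison of trained with untrained KO, 0% of tested genes passed with the covariate, and 1306 had an unadjusted limma p under 0.05. There the values were 0.011 for Dusp1, 0.033 for Dusp6, 0.054 for Dusp14 and -0.29 for Dusp5. Among males numbered over 1000 alone, 4 trained against 2 untrained labelled KO, Dusp6 was higher by 0.16, Dusp1 by 0.070 and Dusp5 lower by 0.43 (limma, adjusted p = 0.349 for Dusp5), and no tested gene passed, with 1320 at an unadjusted limma p under 0.05. What animal number stands for is not given in the sources used here, and its part in the result was not tested further.

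When all 24 libraries shared 1 estimate of the spread, only Dusp4 kept its call against WT, with 10.9% of tested genes called higher, and Dusp6 was at an adjusted limma p of 0.0840. The differences themselves were the same in that fit. Dusp1, Dusp3, Dusp6 and Dusp14 lost their call there, and the part of single libraries in that was not tested.

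**Figure D4:**
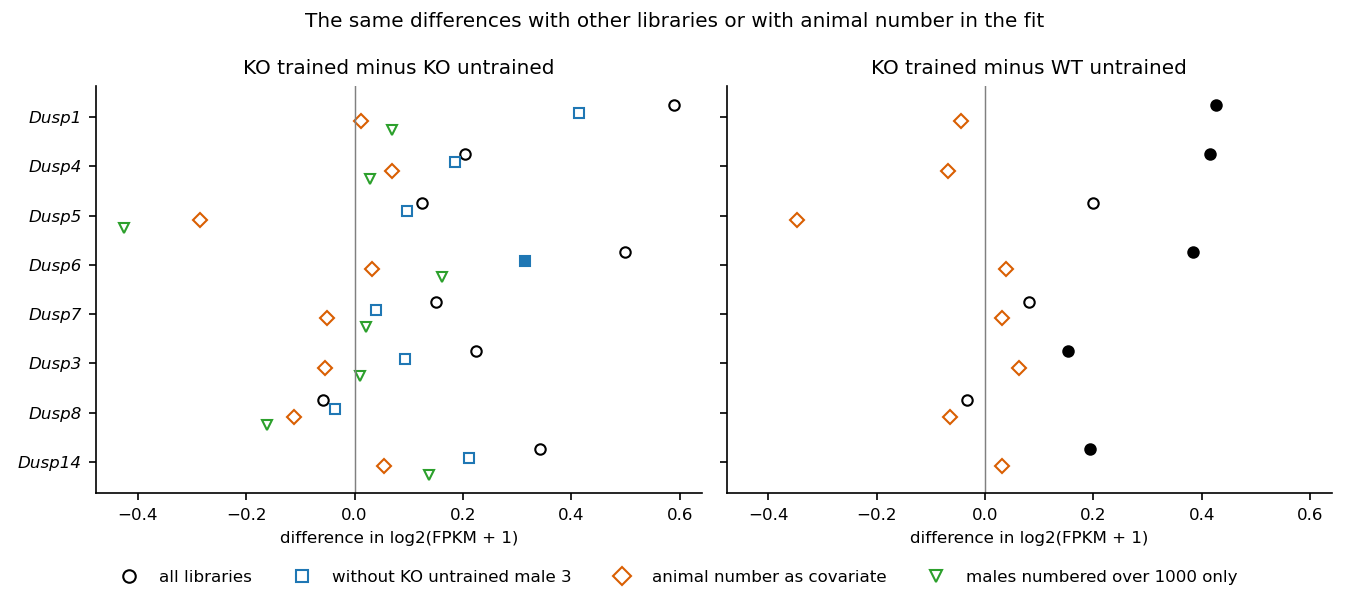
Difference in log2(FPKM + 1) (horizontal axis) for trained KO against untrained KO (left) and against untrained WT (right), with all libraries, without the untrained male 3 labelled KO, with animal number as a covariate, and in males numbered over 1000 only, the last 3 as far as they apply. Filled symbols passed at an adjusted p of 0.05. The diamonds, with animal number in the fit, lie nearer 0 than the circles for every gene but Dusp5 and Dusp8.

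The genes whose levels ran most closely with each Dusp gene, after the mean of each arm and sex was subtracted, differed between them. Over the 24 libraries, which share dissection and depth with both genes of a pair, Dusp1 ran with Nr4a1 (Pearson r = 0.942), Ier2 (0.916) and Fos (0.902), all immediate-early genes of neuronal activity. Without male 3 it ran with Cyr61 (0.924), Nr4a1 (0.902) and Ier2 (0.878). Dusp4 ran with Nr4a2 (0.862), Bcl6 (0.856) and Nr4a3 (0.802), and Dusp5 with Aldoc (0.865), Lrrc49 (0.862) and Fos (0.859). Without male 3 the nearest of Dusp5 were Tiparp (0.888), Aldoc (0.848) and Lrrc49 (0.835), and those of Dusp4 were Nr4a2, Bcl6 and Nr4a3 as before. Without male 3, Dusp6 ran with Egr1 (0.903), Egr2 (0.817) and Spry2 (0.783), and with that library included with Sowahb (0.930), Chn1 (0.927) and Adra1d (0.921). Dusp14 ran with Ier5 (0.931), Fam212b (0.921) and Kctd1 (0.915), and of these Kctd1 (0.766) was among the 3 without male 3. Dusp3 ran with Satb1 (0.987), Asap1 (0.985) and Cd34 (0.984), and Dusp7 with Mgst3 (0.966), Strn4 (0.964) and Acap3 (0.960). Those values for Dusp3 and Dusp7 included the low male 3, and without it their nearest genes were others, led by Camk2g (0.874) and Stub1 (0.923). Dusp8 ran with Greb1l (0.768), Med26 (0.766) and Iffo2 (0.759), and without male 3 with Baalc (0.866), Map3k14 (0.826) and Rab11fip5 (0.813).

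The 8 did not run as 1 group. With the same means subtracted and without male 3, Dusp1 and Dusp5 had r = 0.76 and Dusp5 and Dusp6 r = 0.68, while Dusp1 and Dusp4 had r = -0.13 and Dusp1 and Dusp14 r = -0.43. With male 3 included, Dusp3 and Dusp6 had r = 0.89 and Dusp3 and Dusp7 r = 0.86, against 0.43 and 0.23 without it. For Dusp1 and Dusp4, both nuclear phosphatases, r was 0.02 with male 3 included.

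The 8 were also set against the mean of 24 transcription factors and other genes of the activity response (Fos, Egr, Nr4a, Ier and Etv genes among them). Over 24 libraries the correlation of library values with that mean was 0.849 for Dusp6, 0.833 for Dusp1, 0.734 for Dusp7, 0.723 for Dusp3, 0.717 for Dusp14, 0.702 for Dusp5, 0.497 for Dusp4 and 0.147 for Dusp8. Without male 3 it was 0.884 for Dusp6, 0.797 for Dusp3, 0.782 for Dusp1, 0.735 for Dusp5, 0.719 for Dusp7, 0.635 for Dusp14, 0.488 for Dusp4 and 0.411 for Dusp8. With arm and sex means also subtracted, Dusp6 (0.818), Dusp5 (0.758) and Dusp7 (0.705) stood above Dusp1 (0.666). Dusp6 had the highest correlation in each case, and the order below it moved with the libraries and the means used. The 12 libraries with the lowest list mean were all from untrained animals numbered under 1000. The untrained males over 1000, 2 labelled KO and 1 labelled WT, stood at list means of 4.34, 4.10 and 4.12, within the trained range of 4.07 to 4.32 or just above it. Untrained female 4 labelled KO, numbered under 1000, was at 4.09, also within that range.

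**Figure D5:**
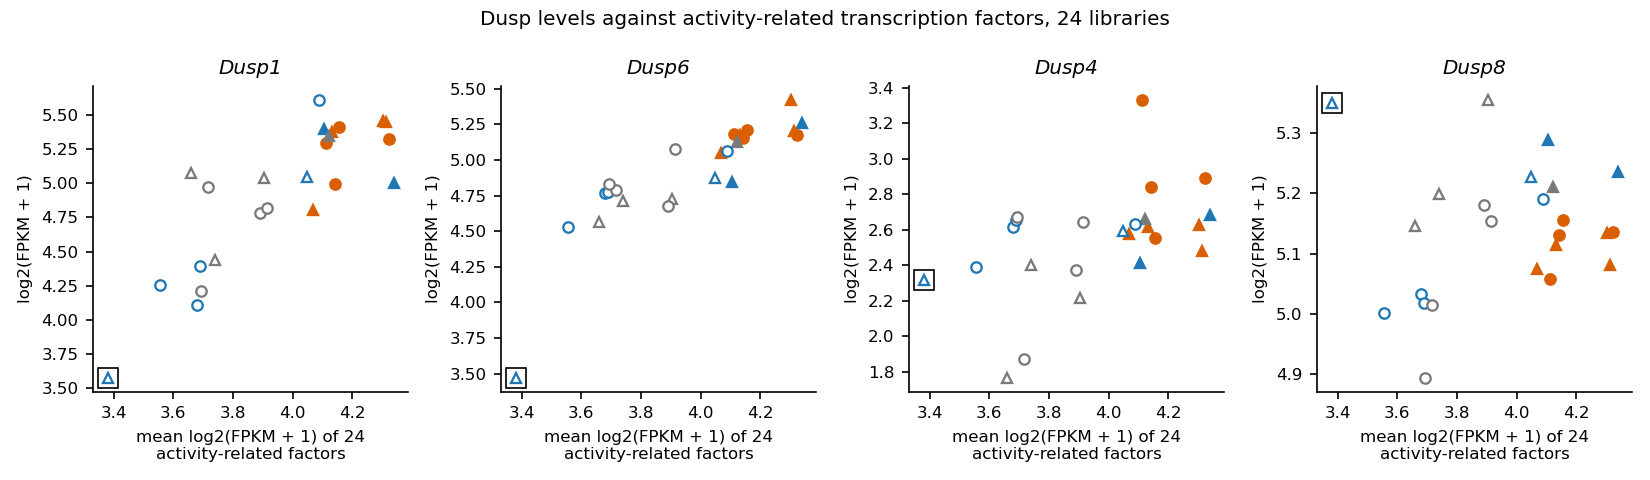
Level of 4 Dusp genes in log2(FPKM + 1) (vertical axis) against the mean log2(FPKM + 1) of 24 genes of the activity response (horizontal axis), 1 point per library, grey for untrained WT, blue for untrained KO and orange for trained KO, with symbols as in the plot of all 8 genes. Dusp1 and Dusp6 climb with the list mean, and for Dusp8 the framed library lies at the top left.

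The rest of the pathway was read from lists of its other parts, which were chosen with earlier results of these data known. The counts in these lists are thus not independent of these data. The transcription factors and targets of ERK had 7 of 24 called higher for training and none lower, where 3.5% of tested genes were called higher: Egr2 (0.81), Egr3 (0.63), Nr4a3 (0.56), Nr4a2 (0.55), Etv5 (0.50), Fosb (0.48) and Fosl2 (0.39), all with limma adjusted p of at most 0.0495. In trained KO against untrained WT, 14 of the 24 were higher and none lower, where 12.9% of tested genes were called higher and 11.5% lower. They were those 7 with Fos (0.70), Arc (0.78), Npas4 (0.55), Nr4a1 (0.50), Egr1 (0.46), Srf (0.28) and Ier5 (0.26). The nearest genes of Dusp1 and Dusp4, Nr4a1 and Nr4a2, are in this list. The list's median was 0.36 for training and 0.37 against WT.

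Feedback inhibitors upstream of ERK, the Sprouty and Spred proteins and their kin, had 2 of 10 tested genes higher for training, Spry2 (0.46) and Spred3 (0.28). Against WT, Spry2 (0.36), Spred1 (0.37), Spry4 (0.23) and Spred3 (0.22) were higher and Nf1, which shuts Ras off, was lower by 0.14. Over all tested genes 3.5% were called higher for training, and against WT 12.9% higher and 11.5% lower. Spry2 was at 28.0 ± 1.62 FPKM in trained libraries, against 20.4 ± 4.43 in the untrained ones labelled KO and 21.7 ± 2.16 in those labelled WT (SD, n = 8 each). Its adjusted limma p for training, 0.0163, was below that of Dusp6, 0.103.

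The kinases themselves went in both directions. For scale, 12.9% of all tested genes were called higher and 11.5% lower against WT, and 5.67% were called for training. Of 11 MAP kinases tested, Mapk6 (0.23) and Mapk14 (0.12) were higher in trained KO than in untrained WT, and Mapk9 (-0.10) and Mapk12 (-0.21) were among those lower. None passed for training, with 3 of 11 at an unadjusted limma p under 0.05 against 23.8% of tested genes. Among 7 MAP kinase kinases only Map2k3 passed, higher by 0.18 against WT. Of 15 genes of the Ras and Raf module only Hras passed, higher by 0.25 for training and by 0.22 against WT. Of 8 activators of stress kinases, Gadd45a (0.30) and Map3k5 (0.19) were higher against WT. Of 15 ligands and receptors upstream, Bdnf was higher for training (0.67) and against WT (0.59), Fgfr1 was higher against WT (0.21), and Nrg1 (-0.24) and Erbb4 (-0.53) were lower.

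Of 12 further Dusp and Styx genes tested, none passed in any of the 3 comparisons, and 8 were above 0 for training (median 0.078) and 5 against WT (median -0.017). Over all tested genes 1.42% were called for genotype label and 5.67% for training, and against WT 12.9% were called higher and 11.5% lower. At an unadjusted limma p under 0.05 they numbered 1 for genotype label, 3 for training and 5 against WT, where 12.7%, 23.8% and 37.5% of all tested genes did so. Of 7 other MAP kinase phosphatases, Ppm1a was lower against WT by 0.11 (limma, adjusted p = 0.0224) and no other gene passed. No gene of any of these lists passed for genotype label, with 8 of 109 at an unadjusted limma p under 0.05 against 12.7% of tested genes. The list differences rest on the same arms as the Dusp genes and thus on the same split of animal numbers.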

How the data were processed

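Poly(A) RNA libraries (stranded mRNA kit, per the labels' protocols) of 24 animals were read from 1 table of FPKM values computed by the authors. The submitters' processing notes name FastQC 0.11.7, Trimmomatic 0.38, STAR 2.5.3a, featureCounts, Subread 1.6.3 and mm10. The annotation, the FPKM formula and the gene filter are not given in the sources used here. Whole reads were recovered for 15231 genes from the steps of the FPKM values, by the smallest multiple that made the values of a gene whole. The share then whole within 0.01 read, 99.97%, follows largely from that rule. Recovered reads served for depth and 1 alternative only. They carry counting error as well as differences between animals.

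Values were fitted as log2(FPKM + 1), which understates changes of low genes, with limma 3.58.1 (R 4.3.3; eBayes with trend) and sex as a covariate, over 12572 genes whose mean was 1 FPKM or more, with Benjamini-Hochberg adjustment at 0.05. Only the arms compared entered a fit. The sex difference came from a fit of the 24 libraries that held arm constant. The fit was run on simulated data, drawn independently for each gene and library with a planted change in some genes. Such draws hold no outlying library and no split of animal numbers, so they do not bear on the calls here. Promoters and positions came from RefSeq GRCm38.p6, the coordinates of mm10. For Dusp3, Dusp7, Dusp8 and Dusp14 the promoter start lies inside the gene span. Python 3.11.15 was used for the rest.

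The members and lists were chosen with earlier results of these data known. The genes named are the 8 members, list genes that passed, Thbs1, Thbs2 and, for each member, the 3 genes with the highest Pearson r. A gene that this rule gives is not reported here. The training-by-sex term, the fits of trained KO against WT with animal number, and animal number without untrained male 3 labelled KO were chosen after seeing the data.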

Additional observations from a re-analysis of the deposited data

Results flagged for a closer look

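Of 60 sets of 8 libraries examined for a library far from the rest, 15 held one, where chance gives about 3. The sets reuse the same libraries and are not independent, so the figure for chance is only a guide. The untrained male 3 labelled KO accounted for 7 of the 15. It was at 31.1 FPKM for Dusp3 (the others of its arm 58.1 to 71.4) and 14.0 for Dusp7 (23.99 to 27.9). Its marker sums were 843 FPKM for cortical neurons, 799.5 for striatal neurons, 154.5 for septum and 692 for oligodendrocytes (1085 to 1253 in the others), and it had 27233266 recovered reads (12343773 to 17576081 in the others). The part of tissue makeup in its Dusp values was not tested.

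Single members stood apart in other libraries. Dusp4 was at 9.07 FPKM in trained female 2 (others 4.59 to 6.43), Dusp5 at 9.67 in WT male 1 (5.45 to 7.39), and Dusp6 at 41.9 in trained male 2 (32.0 to 36.1). Marker sums stood apart for striatal neurons in trained male 1 (304 FPKM), for interneurons in WT male 1 (627), for astrocytes in the untrained female 4 labelled KO (1139) and trained male 4 (1057), and for microglia in the untrained male 4 labelled KO (171). Untrained female 4 labelled KO is also the library with the highest Dusp1 and Dusp5.

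The training difference of Dusp5 had opposite signs in females (0.54) and males (-0.29). The difference between them, -0.83, did not pass over all genes in the interaction test (limma, adjusted p = 0.172).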

How the results depend on the processing

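The 5 members called in trained KO against untrained WT kept their direction under every alternative but animal number as a covariate, chosen after seeing the data, where Dusp1 was at -0.044 and Dusp4 at -0.068, Dusp5 turned to -0.35, no member passed and 22 genes of all passed (12 higher). Leaving out 1 of 16 libraries at a time ended the call of Dusp14 in 10 cases, of Dusp4 in 3 and of Dusp1 in 1, and of Dusp3 and Dusp6 in 0. With all 24 libraries in 1 fit 1 member was called. With the replicate block, 3 members and 1614 genes were called, against 5 and 3074. Leaving out 1 library gave 3 to 6 members; WT female 3 and WT male 3 gave the 3, and without WT male 1 Dusp5 was the sixth. The cause was not tested for any of these.

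For training, 713 genes were called, against 1238 with all 24 libraries, 422 without the sex covariate, 2020 with array weights, 29 with the replicate block, 0 with animal number as a covariate (with or without male 3) and 0 in males over 1000. Members called were 1 with all 24 libraries, 3 with array weights and 0 to 1 when 1 library was left out, and genes called 330 to 945. Animal number as a covariate turned Dusp3 (-0.054), Dusp7 (-0.051) and Dusp5 (-0.29, also -0.29 without male 3), and in males over 1000 Dusp5 was -0.43.

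For genotype label, 179 genes were called, against 98 without the sex covariate, 297 with array weights, 114 with the replicate block and 292 with animal number and without male 3, and 115 to 340 when 1 library was left out. No member was called under any of these. Array weights turned Dusp3 (0.030), Dusp6 (0.0094), Dusp7 (0.0045) and Dusp8 (-0.013), and animal number without male 3 turned Dusp3 (0.060) and Dusp7 (0.039). Leaving out 1 library gave -0.32 to 0.022 for Dusp1, -0.12 to 0.064 for Dusp3, -0.037 to 0.14 for Dusp5, -0.21 to 0.066 for Dusp6 and -0.10 to 0.042 for Dusp7, and apart from Dusp5 it was male 3 that turned the sign.

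For sex, correction for GC content and length left 603 of 3595 genes and 0 members, scaling to an equal sum 0 members, and leaving out 1 library 1 to 2 members. For training by sex, chosen after seeing the data, 1 gene was called, against 13 with a pseudocount of 0.1, 22 at a mean FPKM of at least 5, 2 with median-ratio scaling, 4 with an equal sum, 243 with all 24 libraries, 1132 with array weights (2 members), 10 with limma-voom, 7 with GC correction, 0 with the replicate block, 2 with animal number, and 0 to 194 genes and 0 to 1 members when 1 library was left out.

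The replicate numbers did not pair the animals: same-numbered libraries had mean correlations of 0.025, -0.070 and -0.10 over 8, 7 and 7 pairs. Depth limits Dusp4 and Dusp5 most, with as few as 111 and 78 reads in a library.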
